A study of Mus musculus with 6 samples.

Results

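The genes described here encode laminin chains, collagens and other matrix proteins, integrin subunits, matrix metalloproteinases (Mmp), their tissue inhibitors (Timp) and the related ADAM and ADAMTS proteases. They were taken by symbol: laminin chains, integrin subunits, collagen chains, nidogens, Mmp, Timp, Adam and Adamts genes, together with Fn1, Hspg2, Agrn and Tns1. The rule used no measured value and found 57 of the 11164 genes in the table. Of the 57, 49 had a mean of at least 1 RPKM (read counts corrected for transcript length and sequencing depth) over all libraries and were tested.

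Poly(A) RNA was sequenced from colonies grown for 3 weeks out of CD133-high, CD71-low cells sorted from the pancreas of C57Bl/6 mice aged 2 to 4 months. One group carried a pool of 5 shRNA clones against Glis3 and a second a pool of 5 against CD133 (gene Prom1), while control colonies carried 1 shRNA with no mammalian target. Each group has 2 libraries, called 1 and 3 in the labels, and no genetic change other than the lentiviral shRNA is named. All 3 groups shared the lentiviral exposure, puromycin selection and a semi-solid medium with methylcellulose, serum, conditioned medium, nicotinamide, exendin-4, activin B, RSPO1 and Matrigel, which is itself a basement membrane extract rich in laminin and collagen IV. Whether libraries 1 and 3 stand for different mice or cultures is not stated, and the p-values reflect the spread between the libraries only, which may be technical.

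Epithelial cells rest on a basement membrane, a sheet built from a laminin network and a collagen IV network that nidogens, perlecan (Hspg2) and agrin (Agrn) link together. Cells bind it through integrins, heterodimers of an alpha and a beta chain whose cytoplasmic tails connect through adaptors such as tensin to actin. Matrix metalloproteinases and ADAMTS proteases cut matrix proteins, ADAM proteases shed membrane proteins, and Timp proteins block these enzymes. In the pancreas, duct cells make laminin and collagen IV at their base, and Mmp7 is known from injured and transformed duct-like epithelium.

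The targeted genes fell in their own groups. Glis3 had 13.3 and 11.96 RPKM in the Glis3 knockdown, 24.8 and 24.2 RPKM in the CD133 knockdown and 26.1 and 24.2 RPKM in control. Prom1 had 221 and 202 RPKM in the Glis3 knockdown, 88.0 and 96.0 RPKM in the CD133 knockdown and 191 and 203 RPKM in control. The log2 difference from control was -0.94 for Glis3 in the Glis3 knockdown (adjusted p = 0.00281) and -1.09 for Prom1 in the CD133 knockdown (adjusted p = 0.00874, limma), and the Prom1 call was lost without either control library (-1.16 to -1.03 over all single omissions). Estimated depth lay between 25.8 and 29.2 megareads per library. Of the marker lists examined, the table holds 10 of 11 ductal and epithelial markers, 2 of 10 acinar, 4 of 8 endocrine, 1 of 9 leukocyte, and 0 of 12 fibroblast and stellate, 0 of 8 endothelial and 0 of 5 Schwann markers. The sum of the ductal and epithelial markers was 8868 and 7578 RPKM in the Glis3 knockdown, 7576 and 7898 RPKM in the CD133 knockdown and 9550.0 and 10160.0 RPKM in control. Most of the control sums was Spp1, the gene of the secreted protein osteopontin. Without Spp1, a sum chosen after seeing the data, the other 9 markers gave 3656 and 3410.0 RPKM in the Glis3 knockdown, 4449 and 3697 RPKM in the CD133 knockdown and 3060.0 and 3428 RPKM in control, so that the lower sums of both knockdowns rest on Spp1. The leukocyte marker present, Cd68, stayed between 5.12 and 6.39 RPKM in all libraries. RNA came from whole colonies, so fewer cells of a type and less RNA per cell cannot be told apart.

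Upstream sequence is shown for 3 metalloproteinase genes: Mmp13, which fell in both knockdowns, Mmp7, the most abundant of the 57 genes, and Mmp15, which rose in both. Genes called in 1 knockdown alone are not among them. Mmp13 and Mmp7 lie on the plus strand of chromosome 9, and the windows are chr9:7272264-7272513 and chr9:7691840-7692089, each the 250 bases before the start. The Mmp15 window is chr8:95352046-95352267 on the plus strand, which is 222 bases and ends where the annotated first exon begins. Coordinates are RefSeq's on GRCm38.p6, and capitals mark the AP-1 letters TGANTCA on either strand, the TATA box letters TATAAA on the strand of the gene, and the Ets letters AGGAAG on either strand.
Mmp13: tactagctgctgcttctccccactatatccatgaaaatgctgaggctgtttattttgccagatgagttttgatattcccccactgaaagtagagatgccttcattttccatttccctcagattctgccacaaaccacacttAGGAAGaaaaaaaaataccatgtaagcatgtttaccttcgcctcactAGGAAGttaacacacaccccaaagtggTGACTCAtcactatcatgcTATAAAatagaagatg
Mmp7: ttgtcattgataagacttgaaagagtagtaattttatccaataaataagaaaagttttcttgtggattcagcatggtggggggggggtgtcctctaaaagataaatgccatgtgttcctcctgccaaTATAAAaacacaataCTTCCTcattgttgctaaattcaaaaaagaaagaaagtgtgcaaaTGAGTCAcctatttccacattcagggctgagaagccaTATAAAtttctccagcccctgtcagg
Mmp15: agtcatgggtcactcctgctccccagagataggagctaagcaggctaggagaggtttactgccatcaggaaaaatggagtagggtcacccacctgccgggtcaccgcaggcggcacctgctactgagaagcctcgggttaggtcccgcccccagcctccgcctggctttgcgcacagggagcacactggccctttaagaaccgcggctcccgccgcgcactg
The Mmp13 and Mmp7 windows each hold an AP-1 match and a TATA match, and the Mmp15 window holds none of the 3 motifs. Promoter windows were available for 41 of the 57 genes, 47 windows in all. TGANTCA was in 3 of these 47 (Col6a1, Mmp13, Mmp7), and in 6.75% of 32851 windows of 250 bases over all genes. TATAAA was in 3 of 47 (Adamts1, Mmp13, Mmp7), and in 7.59% of all windows. The Glis-type letters TGGGGGGT, searched on both strands, were in 2 of 47 (Hspg2, Mmp11), and in 1.36% of all windows. The Ets letters were in 19 of 47, and in 29.48% of all windows. The Tcf/Lef letters CTTTGA, on both strands, were in 4 of 47 and in 13.83% of all windows, and the Gli letters GACCACCCA, also on both strands, were in 0 of 47 and in 0.23%. A match describes the letters only.

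Levels spanned more than 3 orders of magnitude. Mmp7, a secreted protease also called matrilysin, averaged 1066 RPKM over the 6 libraries, and next came Itgb1 (202 RPKM), the beta chain shared by most laminin and collagen receptors, Agrn (165 RPKM) and Timp2 (127 RPKM). Itga3, whose product pairs with integrin beta 1 to bind laminin, averaged 94.5 RPKM. Among the laminin chains the order by mean level was Lama5, Lamc1, Lamb2, Lamb3, Lama3, Lama4 and Lamb1, at 71.7, 62.9, 36.1, 23.2, 11.99, 4.51 and 4.08 RPKM. Lama5 and Lamc1 are neighbours whose libraries overlap, as are Lama4 and Lamb1. The genes at or under 1 RPKM on average were Nid1, Nid2, Adam12, Adamts5, Col12a1, Col6a1, Itgb3 and Itga1. The annotation holds 152 protein-coding genes that match the same symbols; the other 95, among them the fibrillar collagen genes Col1a1, Col1a2 and Col3a1, were not analysed here.

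**Figure D1:**
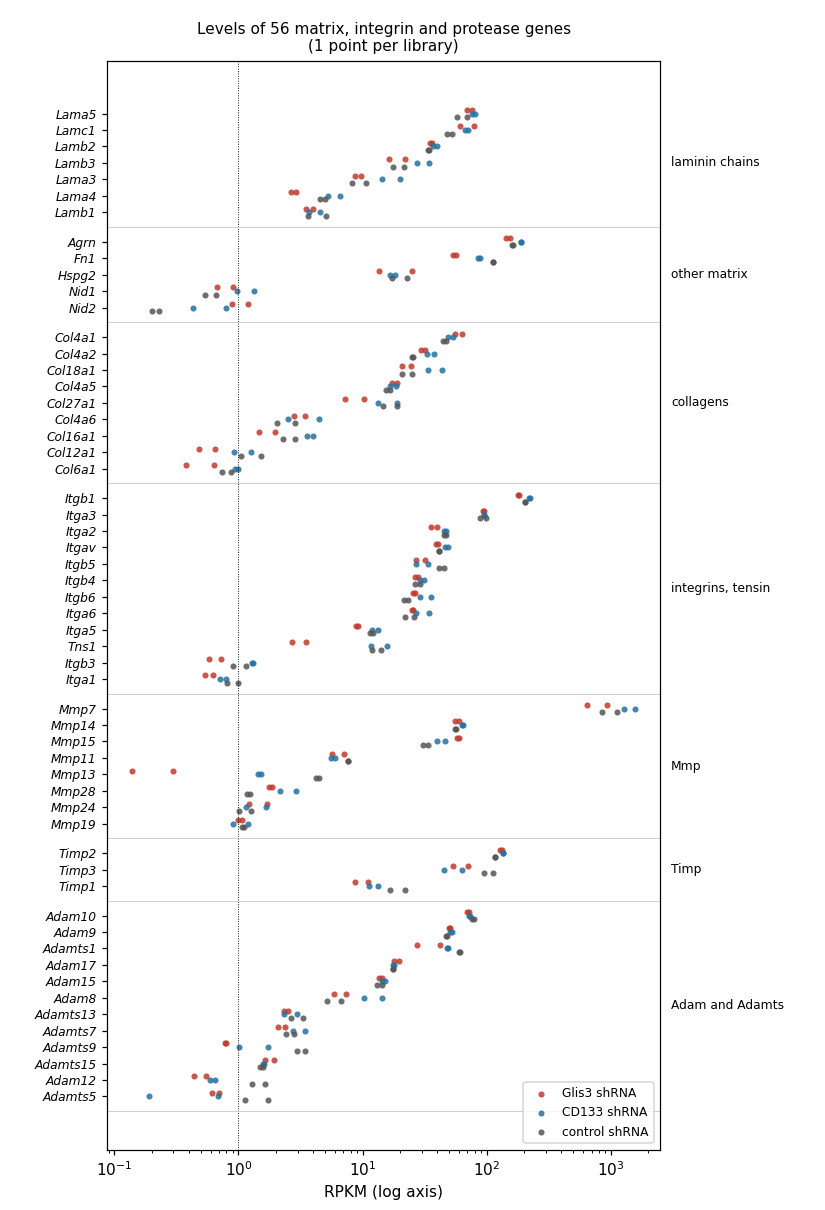
Level of 56 of the genes in RPKM (log axis), grouped by role and ordered by mean level, with 1 point per library for Glis3 shRNA, CD133 shRNA and control shRNA. Mmp7 stands above all others in every library, and Mmp13 shows the widest gap between the groups.

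In the Glis3 knockdown 2 of the 49 tested genes rose and 13 fell against control, and 34 did not pass (limma on log2(RPKM + 1), Benjamini-Hochberg over 10829 genes, adjusted p under 0.05). The 15 calls are 30.6% of the tested members, where 12.9% of all tested genes were called, 8.39% as higher and 4.53% as lower. The median log2 difference of the members was -0.04, and that of all genes was 0.04. In the CD133 knockdown 8 rose, 5 fell and 36 did not pass, or 26.5% of the members, where 11.8% of all tested genes were called, 8.16% as higher and 3.64% as lower. The members' median was 0.12, and that of all genes 0.04. In the direct comparison of the Glis3 with the CD133 knockdown 1 gene was higher, 10 were lower and 38 did not pass, or 22.4%, where 4.06% of all tested genes were called, 1.61% as higher and 2.46% as lower. The median there was -0.20, and that of all genes 0.00. Both knockdowns were set against the same 2 control libraries, so the comparisons are not independent. With each library centred on its median, the members split 1 higher to 14 lower in the Glis3 knockdown and 7 to 7 in the CD133 knockdown. Centring turned the split of all genes to 576 higher and 712 lower in the Glis3 knockdown, where it had been 909 and 491, and to 559 and 612 in the CD133 knockdown, where it had been 884 and 394.

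Many of these calls depended on single libraries. In the Glis3 knockdown, Mmp13 and Fn1 alone kept their calls without control library 1, and Mmp13, Tns1, Fn1 and Mmp15 without control library 3. Without Glis3 knockdown library 3, 8 of the 15 calls were kept, and 13 without Glis3 knockdown library 1. In the CD133 knockdown 0 of the 13 calls were kept by limma without control library 1, when 22 members had an unadjusted p under 0.05, and 0 without control library 3, when 20 did. Without CD133 knockdown library 1 the Mmp13 call alone was kept, and 12 were kept without library 3. In the direct comparison, calls for Mmp13, Tns1 and Fn1 were kept when any single library was left out, and 3 to 9 of the 11 calls remained. Fitted to the 4 knockdown libraries alone, without the controls, the direct comparison kept the calls of Tns1 and Fn1. Mmp13 was not tested there, since its mean over these libraries was under 1 RPKM, and the other calls were lost. The ranges over such omissions are given with the genes below.

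**Figure D2:**
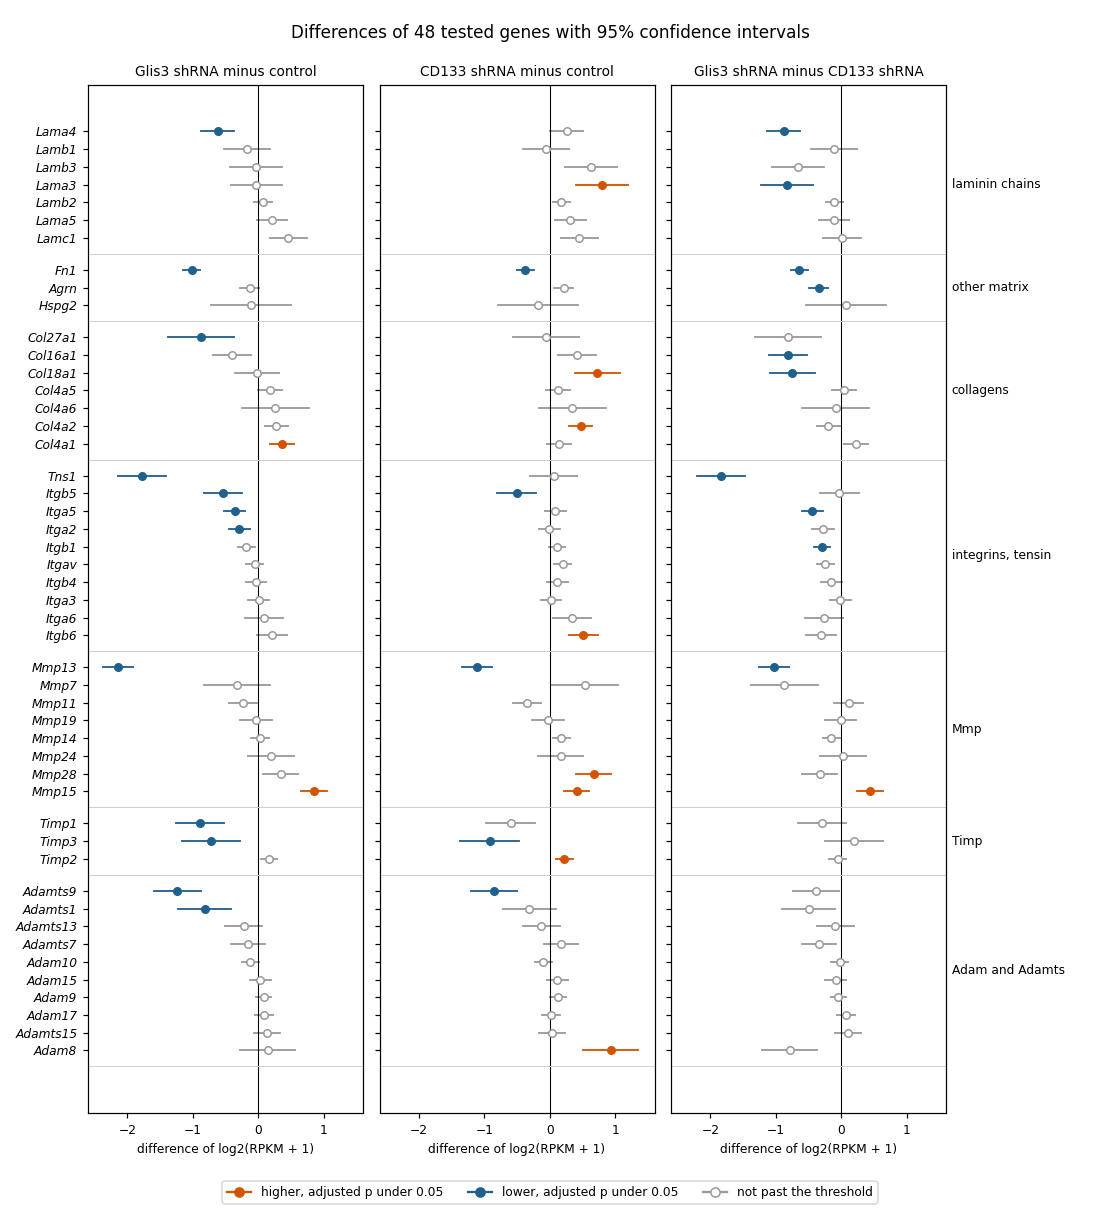
Difference of log2(RPKM + 1) for 48 of the tested genes, with 95% confidence intervals from limma, for Glis3 shRNA minus control, CD133 shRNA minus control and Glis3 shRNA minus CD133 shRNA. Filled points passed an adjusted p of 0.05; most filled points in the left panel (12 of 14) and the right panel (10 of 11) lie below 0, and 8 of 13 in the middle panel lie above 0.

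Laminins are trimers of an alpha, a beta and a gamma chain. Lama3 and Lamb3 encode chains of laminin-332, the laminin of hemidesmosomes under epithelia. Lama3 had 9.72 and 8.68 RPKM in the Glis3 knockdown, 20.1 and 14.5 RPKM in the CD133 knockdown and 8.30 and 10.6 RPKM in control. Both CD133 knockdown libraries lay above all others. The log2 difference was 0.80 in the CD133 knockdown against control (95% interval 0.41 to 1.19, adjusted p = 0.0301) and -0.83 in the Glis3 against the CD133 knockdown (adjusted p = 0.0471), and -0.03 in the Glis3 knockdown against control (interval -0.42 to 0.36, adjusted p = 0.925). Lamb3 had 22.1 and 16.3 RPKM in the Glis3 knockdown, 34.2 and 27.6 RPKM in the CD133 knockdown and 17.6 and 21.5 RPKM in control. Its order was that of Lama3, but the CD133 knockdown difference of 0.63 (interval 0.23 to 1.03) did not pass (adjusted p = 0.0547).

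Of the other laminin chains, Lama4, an alpha chain usually found in vessels and mesenchyme, had 2.90 and 2.63 RPKM in the Glis3 knockdown, 5.30 and 6.61 RPKM in the CD133 knockdown and 5.01 and 4.58 RPKM in control. Both Glis3 knockdown libraries were the lowest, and the log2 difference was -0.62 against control (interval -0.87 to -0.38, adjusted p = 0.0158) and -0.88 against the CD133 knockdown (adjusted p = 0.0142). The 12 fibroblast and stellate markers and 8 endothelial markers have 0 members in the table. Lama5, the alpha chain of laminin-511 and laminin-521, had 69.3 and 76.8 RPKM in the Glis3 knockdown, 81.0 and 76.3 RPKM in the CD133 knockdown and 69.0 and 57.4 RPKM in control. Neither its difference of 0.21 in the Glis3 knockdown (adjusted p = 0.2) nor that of 0.32 in the CD133 knockdown (adjusted p = 0.0805) passed. Lamc1, the gamma chain of most laminins, had 60.9 and 78.9 RPKM in the Glis3 knockdown, 71.0 and 66.5 RPKM in the CD133 knockdown and 52.3 and 47.9 RPKM in control. All 4 knockdown libraries lay above both controls, yet neither difference passed: 0.46 in the Glis3 knockdown (interval 0.18 to 0.75, adjusted p = 0.0505), and for the CD133 knockdown 0.45 (interval 0.17 to 0.73, adjusted p = 0.055). Of the 7 laminin chains reported here 0 rose and 1 fell in the Glis3 knockdown, where 8.39% of all tested genes were higher and 4.53% lower. In the CD133 knockdown 1 rose and 0 fell, where 8.16% were higher and 3.64% lower.

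With 1 library left out at a time, the Lama3 difference in the CD133 knockdown ranged from 0.57 to 1.02, and its call was lost without either control library or CD133 knockdown library 1. The Lama4 difference in the Glis3 knockdown ranged from -0.68 to -0.57, and its call was lost without either control library or Glis3 knockdown library 3. In the direct comparison Lama4 ranged from -1.02 to -0.74 and was lost without either control library, and Lama3 ranged from -1.05 to -0.60 and was lost without either control library, Glis3 knockdown library 3 or CD133 knockdown library 1. The Lama3 call there was also lost under quantile normalization and with no variance trend. Lama3 exons overlap those of Gm29200 on the other strand, and whether reads were counted by strand is not stated. In the CD133 knockdown, where Lama3 rose, 4 of the 10 ductal and epithelial markers in the table rose (Krt19, Krt8, Cdh1, Sox9). Another 2 fell (Spp1 and the targeted Prom1), where 8.16% of all tested genes were higher and 3.64% lower. The part of these markers in the laminin values was not tested.

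**Figure D3:**
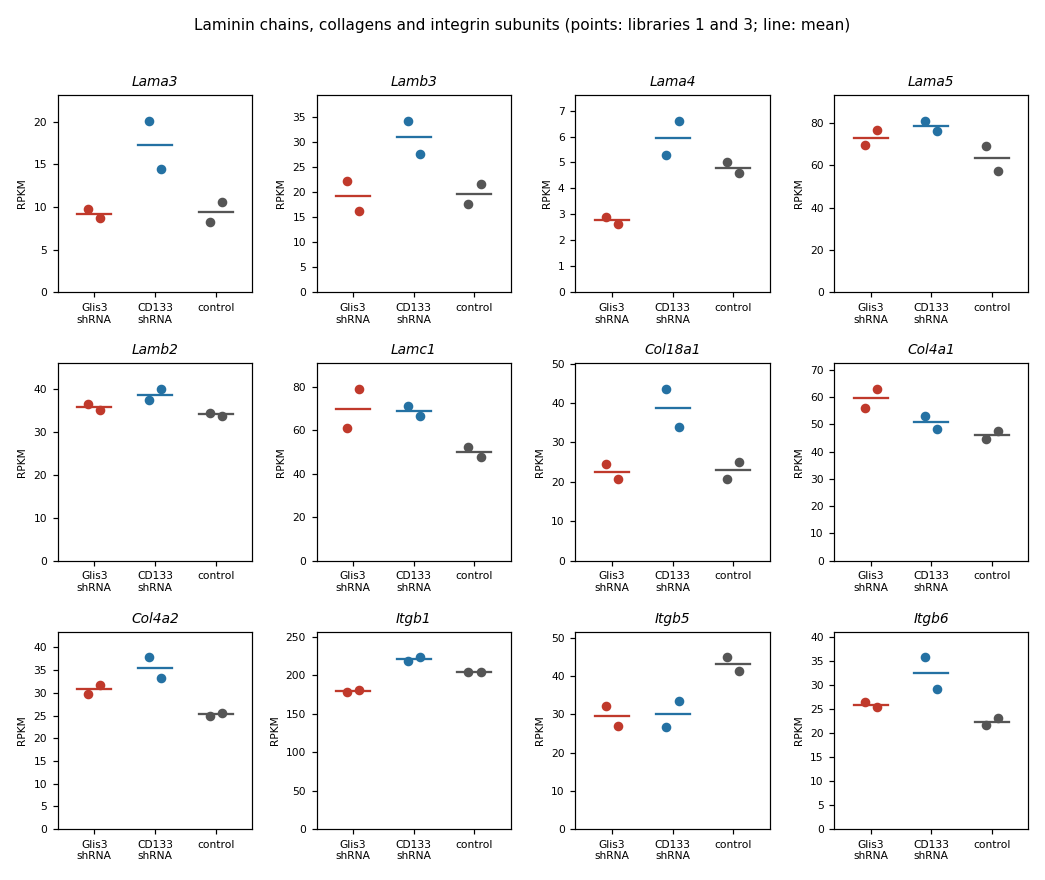
RPKM of laminin chains, collagens and integrin subunits in each library, in the order Glis3 shRNA, CD133 shRNA and control, with a line at the group mean. Lama3, Lamb3 and Col18a1 are highest in both CD133 shRNA libraries, Lama4 is lowest in both Glis3 shRNA libraries, and Itgb5 is lower in all 4 knockdown libraries than in both controls.

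Fibronectin, encoded by Fn1, is a glycoprotein that cells assemble into fibrils through integrins. Fn1 had 53.5 and 56.3 RPKM in the Glis3 knockdown, 84.7 and 87.8 RPKM in the CD133 knockdown and 112 and 112 RPKM in control. The 3 groups did not overlap, and libraries within a group lay close together. The log2 difference was -1.02 in the Glis3 knockdown (interval -1.15 to -0.89, adjusted p = 0.000987), which is 49% of control, and -0.38 in the CD133 knockdown (interval -0.50 to -0.25, adjusted p = 0.0159), which is 76.9%. Fn1 was also lower in the Glis3 than in the CD133 knockdown by -0.64 (adjusted p = 0.00617). The Glis3 knockdown and direct calls held without any single library (-1.05 to -0.98 and -0.68 to -0.61). The CD133 knockdown call was lost without either control library or CD133 knockdown library 1 (-0.40 to -0.35). Its exons overlap those of Apol7d on the other strand.

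Agrn encodes agrin, a heparan sulfate proteoglycan that binds laminin. It had 153 and 142 RPKM in the Glis3 knockdown, 188 and 188 RPKM in the CD133 knockdown and 164 and 159 RPKM in control. The Glis3 knockdown was lower than the CD133 knockdown (-0.35, adjusted p = 0.0374), and the differences from control were -0.13 (adjusted p = 0.198) in the Glis3 knockdown and 0.22 (adjusted p = 0.0635) in the CD133 knockdown. The direct call was lost without each library but Glis3 knockdown library 1 (-0.40 to -0.29). Hspg2, the perlecan core protein gene, ranged from 13.6 to 24.9 RPKM within the Glis3 knockdown alone, and neither difference from control passed. The nidogen genes were near 1 RPKM or below: Nid2 had 0.89 and 1.19 RPKM in the Glis3 knockdown, 0.80 and 0.43 RPKM in the CD133 knockdown and 0.20 and 0.23 RPKM in control. Its control values correspond to about 26 and 33 reads at the estimated depth, and the gene was outside the test at its mean of 0.623 RPKM. The deposited genes each reach at least 1 RPKM in some library, and Nid2 did so in Glis3 knockdown library 3 alone. With no further filter its difference in the Glis3 knockdown was 0.74. No test is given for it, since Nid2 entered the data through the group where it was highest. Nid1 and Nid2 each overlap a gene on the other strand.

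Collagen IV forms the network of basement membranes, most often from 2 alpha 1 chains and 1 alpha 2 chain. Its genes Col4a1 and Col4a2 lie head to head on chromosome 8, and their first exons overlap by position, Col4a1 ending at 11312826 on the minus strand and Col4a2 starting at 11312805 on the plus strand (GRCm38). Col4a1 had 56.0 and 62.9 RPKM in the Glis3 knockdown, 53.1 and 48.3 RPKM in the CD133 knockdown and 44.5 and 47.4 RPKM in control. It rose in the Glis3 knockdown (0.36, interval 0.18 to 0.55, adjusted p = 0.0318), a call lost after median centring. Col4a2 had 29.8 and 31.8 RPKM in the Glis3 knockdown, 37.8 and 33.3 RPKM in the CD133 knockdown and 25.0 and 25.6 RPKM in control. It rose in the CD133 knockdown (0.47, interval 0.30 to 0.65, adjusted p = 0.0183), and its 0.28 in the Glis3 knockdown did not pass (adjusted p = 0.0535). All 4 knockdown libraries were above both controls for both genes. The ratio of Col4a1 to Col4a2, in RPKM, was 1.88 and 1.97 in the Glis3 knockdown, 1.41 and 1.45 in the CD133 knockdown and 1.78 and 1.85 in control, lowest in both CD133 knockdown libraries. The Col4a1 call was lost without either control library or Glis3 knockdown library 3 (0.28 to 0.45), and the Col4a2 call without either control library or CD133 knockdown library 1 (0.39 to 0.56).

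Col18a1 encodes the basement membrane collagen whose tail is released as endostatin. It had 24.6 and 20.6 RPKM in the Glis3 knockdown, 43.5 and 33.9 RPKM in the CD133 knockdown and 20.8 and 25.0 RPKM in control. Only the CD133 knockdown libraries stood apart, with a log2 difference from control of 0.73 (interval 0.39 to 1.07, adjusted p = 0.0276), and the Glis3 knockdown lay below the CD133 knockdown by -0.75 (adjusted p = 0.0445). Col27a1, a fibrillar collagen known from cartilage, had 10.4 and 7.28 RPKM in the Glis3 knockdown, 13.4 and 19.1 RPKM in the CD133 knockdown and 19.1 and 14.7 RPKM in control. It fell in the Glis3 knockdown (-0.87, interval -1.38 to -0.37, adjusted p = 0.0434). Col16a1, a fibril-associated collagen, had 1.96 and 1.46 RPKM in the Glis3 knockdown, 3.96 and 3.56 RPKM in the CD133 knockdown and 2.28 and 2.85 RPKM in control. Its groups did not overlap, and the direct difference passed (-0.82, adjusted p = 0.0229) while -0.40 (adjusted p = 0.0788) in the Glis3 and 0.42 (adjusted p = 0.0692) in the CD133 knockdown did not. Col4a5 and Col4a6 did not pass in any comparison. Col18a1 and Col27a1 calls against control were lost without either control library or 1 knockdown library, CD133 knockdown library 1 (0.55 to 0.90) and Glis3 knockdown library 3 (-1.10 to -0.65). The direct calls of Col18a1 (-0.92 to -0.57) and Col16a1 (-0.95 to -0.68) were lost without each library but Glis3 knockdown library 1. With no variance trend the Col27a1 call in the Glis3 knockdown and the direct Col18a1 call were lost too.

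Of the 9 tested integrin subunits 0 rose and 3 fell in the Glis3 knockdown, where 8.39% of all tested genes were higher and 4.53% lower. Of the same 9, 1 rose and 1 fell in the CD133 knockdown, where 8.16% were higher and 3.64% lower. Itgb5, which pairs with the alpha v chain to bind vitronectin, had 32.1 and 27.0 RPKM in the Glis3 knockdown, 26.8 and 33.6 RPKM in the CD133 knockdown and 44.9 and 41.3 RPKM in control. All 4 knockdown libraries were below both controls, with differences of -0.53 (interval -0.83 to -0.24, adjusted p = 0.0382) for Glis3 knockdown colonies and -0.51 (interval -0.80 to -0.21, adjusted p = 0.0451) in the CD133 knockdown. Itgb6, which also pairs with alpha v and is known for activating latent TGF-beta at epithelia, had 26.4 and 25.4 RPKM in the Glis3 knockdown, 35.7 and 29.2 RPKM in the CD133 knockdown and 21.5 and 23.1 RPKM in control. It rose in the CD133 knockdown (0.51, interval 0.29 to 0.74, adjusted p = 0.0241), and its 0.21 in the Glis3 knockdown did not pass (adjusted p = 0.195). The shared partner Itgav had 39.1 and 40.8 RPKM in the Glis3 knockdown, 46.3 and 48.9 RPKM in the CD133 knockdown and 41.4 and 41.4 RPKM in control, and passed in no comparison. Itga5, the alpha chain of the main fibronectin receptor, had 9.23 and 8.84 RPKM in the Glis3 knockdown, 11.98 and 13.3 RPKM in the CD133 knockdown and 12.1 and 11.5 RPKM in control. It fell in the Glis3 knockdown (-0.36, adjusted p = 0.0222) and lay below the CD133 knockdown by -0.44 (adjusted p = 0.0234). Itga2, the alpha chain of a collagen receptor, fell in the Glis3 knockdown by 0.29 on the log2 scale (adjusted p = 0.0402).

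The abundant beta chain Itgb1 had 179 and 181 RPKM in the Glis3 knockdown, 219 and 223 RPKM in the CD133 knockdown and 204 and 205 RPKM in control, and the groups did not overlap. Its direct difference of -0.30 passed (adjusted p = 0.0389), a call lost without each single library in turn (-0.31 to -0.28), and -0.18 against control in the Glis3 knockdown did not pass (adjusted p = 0.0681). The laminin-binding subunits Itga3, Itga6 and Itgb4 did not pass in any comparison. The 95% intervals of their differences from control in the Glis3 knockdown were -0.15 to 0.16, -0.20 to 0.37 and -0.19 to 0.13. The interval for Itga6 in the CD133 knockdown was 0.06 to 0.63, with 34.4 and 27.0 RPKM in CD133 knockdown libraries, against 21.9 and 25.8 RPKM in control. The Itgb5, Itga5 and Itga2 calls in the Glis3 knockdown were lost without either control library (-0.66 to -0.41, -0.39 to -0.32 and -0.37 to -0.21), the first 2 also without Glis3 knockdown library 3. The Itga2 call was lost as well without Glis3 knockdown library 1 or either CD133 knockdown library, with no variance trend, and when only the 2 groups compared were fitted. The Itgb5 and Itgb6 calls in the CD133 knockdown were lost without either control library or CD133 knockdown library 1 (-0.67 to -0.35 and 0.37 to 0.65), that of Itgb5 also with no variance trend. The direct Itga5 call was lost without each library but Glis3 knockdown library 1 (-0.51 to -0.37).

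Tns1 encodes tensin 1, which binds the tail of beta integrins and actin at fibrillar adhesions, where fibronectin fibrils form. It had 3.49 and 2.70 RPKM in the Glis3 knockdown, 11.7 and 15.6 RPKM in the CD133 knockdown and 14.0 and 11.9 RPKM in control. The Glis3 knockdown libraries lay far below the other 4, which overlapped among themselves. The log2 difference was -1.77 against control (interval -2.14 to -1.41, adjusted p = 0.00436), which is 23.8% of control, and -1.83 against the CD133 knockdown (adjusted p = 0.00617). It was 0.06 in the CD133 knockdown (interval -0.31 to 0.42, adjusted p = 0.831). The Glis3 knockdown call was lost without control library 1 (-1.91 to -1.64 over all single omissions), and the direct call held without any single library (-2.03 to -1.64).

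Further adhesion genes, none of them among the 57, were read from the same fit. For the counts below, 8.39% of all tested genes were higher and 4.53% lower in the Glis3 knockdown. In the CD133 knockdown these shares were 8.16% and 3.64%. Over all tested genes, every CD133 knockdown call and most Glis3 knockdown calls were lost without either control library. Ranges over omissions are not given for the genes of these lists. Of 24 tested focal adhesion and integrin adaptor genes, 1 rose and 0 fell in the Glis3 knockdown, with a median log2 difference of 0.00, and 3 rose and 1 fell in the CD133 knockdown, with a median of 0.06. The tensin gene Tns4, also on this list, was not tested at its mean of 0.87 RPKM. It had 0.22 and 0.30 RPKM in the Glis3 knockdown, 0.92 and 1.00 RPKM in the CD133 knockdown and 1.72 and 1.06 RPKM in control. Arhgef7, an exchange factor of focal adhesions, rose in the Glis3 knockdown (0.39, adjusted p = 0.0155) and in the CD133 knockdown (0.44, adjusted p = 0.016). Fermt1, the epithelial kindlin that activates integrins, rose in the CD133 knockdown (0.46, adjusted p = 0.0208), as did Actn1 (0.38, adjusted p = 0.0448), while Actn4, the other non-muscle alpha-actinin, fell there (-0.24, adjusted p = 0.0301). Of 15 other matrix receptors, 0 rose and 4 fell in the Glis3 knockdown (median -0.16) and 1 rose and 1 fell in the CD133 knockdown (median 0.06). Those that fell in the Glis3 knockdown were the syndecan Sdc4 (-0.41, adjusted p = 0.0242), the thrombospondin receptor Cd47 (-0.38, adjusted p = 0.036), the glypican Gpc3 (-1.61, adjusted p = 0.0388) and the collagen receptor Ddr1 (-0.27, adjusted p = 0.0487). In the same order their differences in the CD133 knockdown were -0.25, -0.25, -1.39 and 0.14. None of these passed (limma adjusted p = 0.0831, 0.106, 0.0566 and 0.227), though all 4 knockdown libraries lay below both controls for Gpc3. Of 18 collagen and matrix assembly genes, 2 rose and 2 fell in the Glis3 knockdown (median -0.02) and 2 rose and 0 fell in the CD133 knockdown (median 0.02). Sec23a, a coat protein of the vesicles that carry collagen out of the endoplasmic reticulum, had 10.9 and 10.8 RPKM in the Glis3 knockdown, 11.9 and 10.9 RPKM in the CD133 knockdown and 6.97 and 6.91 RPKM in control. All 4 knockdown libraries lay above both controls, with differences of 0.57 (adjusted p = 0.00624) in the Glis3 and 0.64 (adjusted p = 0.0104) in the CD133 knockdown. Plod2, a collagen lysyl hydroxylase, rose in the Glis3 knockdown (0.41, adjusted p = 0.0339) and in the CD133 knockdown (0.62, adjusted p = 0.016).

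Among the metalloproteinases, Mmp7 made up 87.7% and 84.0% of the summed RPKM of the 8 Mmp genes in the Glis3 knockdown, 91.4% and 93.1% in the CD133 knockdown and 89.1% and 91.5% in control. Mmp7 had 934 and 646 RPKM in the Glis3 knockdown, 1286 and 1561 RPKM in the CD133 knockdown and 841 and 1130.0 RPKM in control. The Glis3 knockdown and control libraries overlapped, and both CD133 knockdown libraries were above all others. No difference passed: -0.33 in the Glis3 knockdown (interval -0.84 to 0.18, adjusted p = 0.34), 0.54 in the CD133 knockdown (interval 0.03 to 1.05, adjusted p = 0.141) and -0.87 directly (interval -1.37 to -0.36, adjusted p = 0.0791). Its exons overlap those of AV064505 on the other strand.

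Mmp13 is collagenase 3, which cleaves fibrillar collagens. It had 0.30 and 0.14 RPKM in the Glis3 knockdown, 1.44 and 1.52 RPKM in the CD133 knockdown and 4.50 and 4.23 RPKM in control. At the estimated depth these are about 22 and 11 reads in the Glis3 knockdown, 99 and 111 in the CD133 knockdown and 322 and 330 in control. The 3 groups did not overlap. The CD133 knockdown and control libraries each lay close together, whereas the Glis3 knockdown pair differed by as much as those 22 and 11 reads. The difference of log2(RPKM + 1), a scale that compresses changes at such low levels, was -2.14 in the Glis3 knockdown (interval -2.37 to -1.91, adjusted p = 0.000762), and for the CD133 knockdown it was -1.11 (interval -1.34 to -0.89, adjusted p = 0.00874). On the RPKM scale the mean of the Glis3 knockdown was 5.04% of the control mean, and 3.21% without its library 1 or 6.87% without its library 3. The mean of the CD133 knockdown was 33.9%. The Glis3 knockdown also lay below the CD133 knockdown (-1.03, adjusted p = 0.00852), though the gene reached the tested mean of 1 RPKM only through the control libraries. The Glis3 knockdown and direct calls held without any single library (-2.23 to -2.05 and -1.12 to -0.93), while the CD133 knockdown call was lost without either control library (-1.15 to -1.08). With the 4 knockdown libraries fitted without the controls, Mmp13 was not tested, since its mean over them was under 1 RPKM.

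Mmp15 encodes a membrane-anchored metalloproteinase, MT2-MMP. It had 59.5 and 57.5 RPKM in the Glis3 knockdown, 46.1 and 39.7 RPKM in the CD133 knockdown and 30.6 and 33.4 RPKM in control. The groups did not overlap, and their order was the reverse of that of Mmp13. The difference was 0.85 in the Glis3 knockdown (interval 0.66 to 1.05, adjusted p = 0.0052), 0.41 in the CD133 knockdown (interval 0.21 to 0.60, adjusted p = 0.0283) and 0.44 directly (adjusted p = 0.0416). Its relative Mmp14 (MT1-MMP) had 59.5 and 55.4 RPKM in the Glis3 knockdown, 63.0 and 64.7 RPKM in the CD133 knockdown and 56.7 and 56.0 RPKM in control, and did not pass in any comparison. Mmp15 was thus at the level of Mmp14 in the Glis3 knockdown and below it in every control library. Mmp28, known as epilysin, had 1.75 and 1.85 RPKM in the Glis3 knockdown, 2.91 and 2.16 RPKM in the CD133 knockdown and 1.18 and 1.23 RPKM in control. It rose in the CD133 knockdown (0.67, interval 0.41 to 0.94, adjusted p = 0.0206), and 0.35 in the Glis3 knockdown did not pass (adjusted p = 0.0919). Mmp11, Mmp19 and Mmp24 did not pass, Mmp11 with -0.35 (adjusted p = 0.0537) in the CD133 knockdown. The Mmp15 call in the Glis3 knockdown was lost without control library 1 (0.79 to 0.91), its CD133 knockdown call (0.31 to 0.51) and that of Mmp28 (0.52 to 0.83) without either control library or CD133 knockdown library 1, and its direct call without each library in turn (0.34 to 0.55) and with no variance trend.

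**Figure D4:**
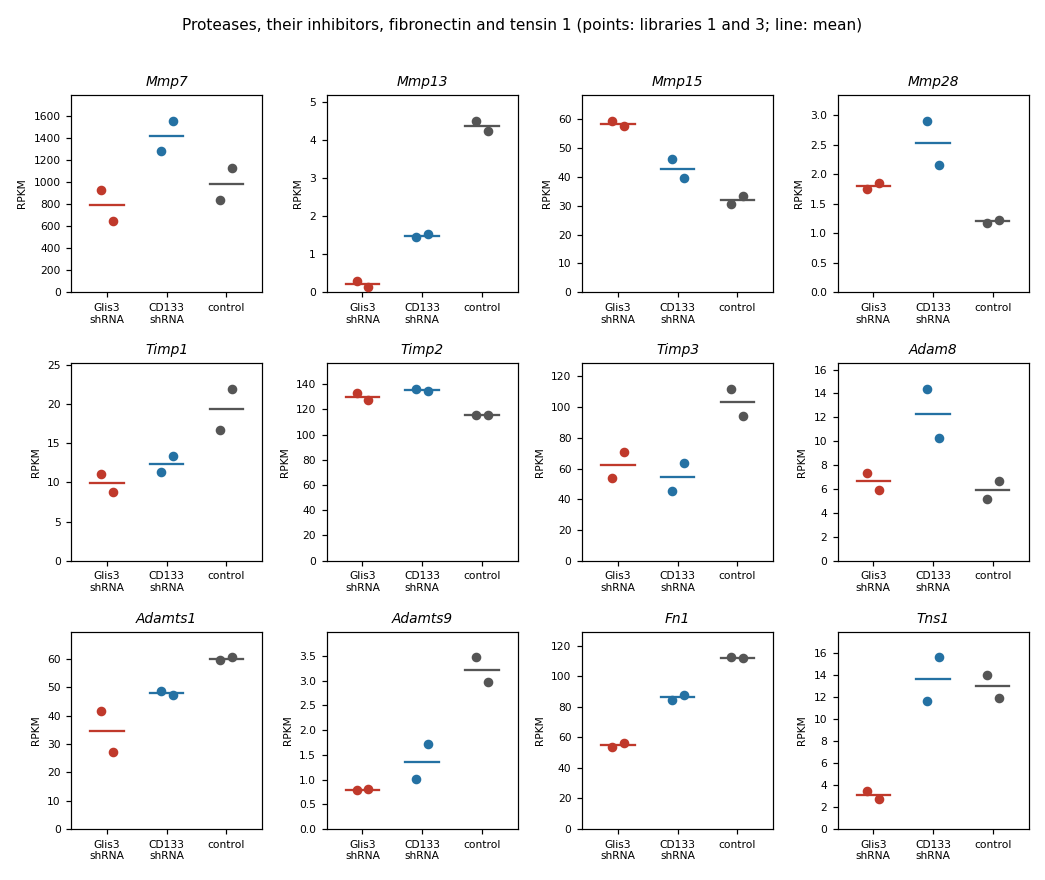
RPKM of proteases, their inhibitors, fibronectin and tensin 1 in each library, in the order Glis3 shRNA, CD133 shRNA and control, with a line at the group mean. Mmp13 and Fn1 are lowest in both Glis3 shRNA libraries and highest in both controls, Mmp15 shows the reverse order, and Tns1 is low in the Glis3 shRNA libraries alone.

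The inhibitors did not move together. Timp3, which binds to the matrix and also blocks ADAM and ADAMTS enzymes, had 53.7 and 70.9 RPKM in the Glis3 knockdown, 45.6 and 63.5 RPKM in the CD133 knockdown and 112 and 94.4 RPKM in control. All 4 knockdown libraries were below both controls, and the differences were -0.73 (interval -1.17 to -0.28, adjusted p = 0.0499) in the Glis3 knockdown and -0.92 (interval -1.36 to -0.48, adjusted p = 0.029) in the CD133 knockdown. Timp1 had 11.1 and 8.74 RPKM in the Glis3 knockdown, 11.3 and 13.4 RPKM in the CD133 knockdown and 16.8 and 21.95 RPKM in control. Every knockdown library was again below both controls. The fall passed in the Glis3 knockdown (-0.89, interval -1.26 to -0.52, adjusted p = 0.0176), but the -0.60 of CD133 knockdown colonies did not (adjusted p = 0.0524). Timp2, the most abundant of the 3, had 133 and 127 RPKM in the Glis3 knockdown, 136 and 135 RPKM in the CD133 knockdown and 116 and 116 RPKM in control. It rose in the CD133 knockdown (0.23, interval 0.10 to 0.35, adjusted p = 0.0406), a call lost after median centring, when only the 2 groups compared were fitted, and without each library but Glis3 knockdown library 1 (0.22 to 0.23), and 0.17 in the Glis3 knockdown did not pass (adjusted p = 0.0824). Against control, the Timp3 call in the Glis3 knockdown was lost without either control library or Glis3 knockdown library 1 (-0.92 to -0.53), and also with a pseudocount of 0.1, under quantile normalization, with a minimum mean of 5 RPKM and with no variance trend. Its CD133 knockdown call was lost without either control library or CD133 knockdown library 1 (-1.15 to -0.69). The Timp1 call was lost without either control library or Glis3 knockdown library 3 (-1.08 to -0.71).

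Of the 10 tested ADAM and ADAMTS genes 0 rose and 2 fell in the Glis3 knockdown, against 8.39% and 4.53% of all tested genes. For the CD133 knockdown the counts were 1 and 1, against 8.16% and 3.64% of all tested genes. Adamts9, a proteoglycan-degrading protease, had 0.78 and 0.80 RPKM in the Glis3 knockdown, 1.01 and 1.72 RPKM in the CD133 knockdown and 3.47 and 2.97 RPKM in control. All 4 knockdown libraries lay below both controls, with differences of -1.24 (interval -1.59 to -0.88, adjusted p = 0.00784) in the Glis3 and -0.85 (interval -1.20 to -0.50, adjusted p = 0.0216) in the CD133 knockdown. Adamts1, which also cuts proteoglycans, had 41.7 and 27.3 RPKM in the Glis3 knockdown, 48.9 and 47.5 RPKM in the CD133 knockdown and 59.8 and 60.6 RPKM in control. It fell in the Glis3 knockdown (-0.81, interval -1.22 to -0.41, adjusted p = 0.0289), where library 3 was the lower of the pair, and -0.32 in the CD133 knockdown did not pass (adjusted p = 0.26). Adam8, a sheddase best known from leukocytes, had 7.33 and 5.94 RPKM in the Glis3 knockdown, 14.4 and 10.3 RPKM in the CD133 knockdown and 5.15 and 6.70 RPKM in control. It rose in the CD133 knockdown (0.93, interval 0.51 to 1.35, adjusted p = 0.0252), where the leukocyte marker Cd68 had 6.39 and 5.12 RPKM, against 5.23 and 5.83 RPKM in control.

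The main sheddases Adam10 and Adam17 did not pass, and their intervals were narrow. For Adam10, at 72.7 and 70.0 RPKM in the Glis3 knockdown, 73.3 and 71.4 RPKM in the CD133 knockdown and 75.9 and 79.5 RPKM in control, the intervals were -0.25 to 0.01 in the Glis3 and -0.23 to 0.03 in the CD133 knockdown. For Adam17 they were -0.04 to 0.23 and -0.12 to 0.15. Adam12, outside the test at a mean of 0.862 RPKM, had 0.55 and 0.44 RPKM in the Glis3 knockdown, 0.59 and 0.65 RPKM in the CD133 knockdown and 1.65 and 1.29 RPKM in control. With no further filter its differences were -0.72 in the Glis3 and -0.60 in the CD133 knockdown, and that of Adamts5 was -0.77 in the CD133 knockdown. Adam12 and Adamts5 each reached 1 RPKM, the level all deposited genes reach in some library, in the control libraries alone. No test is given for them, since they entered the data through the group where they were highest. The Adamts9 call in the Glis3 knockdown was lost without either control library (-1.32 to -1.15), and its call in the CD133 knockdown (-1.07 to -0.63) and that of Adam8 (0.71 to 1.16) also without CD133 knockdown library 1. Adamts1 in the Glis3 knockdown lost its call without either control library, and without Glis3 knockdown library 3 its difference shrank to -0.52, still past the threshold. Exons of Adam8, Adamts9 and Mmp28 overlap non-member genes on the other strand.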

How the data were processed

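The authors deposited 1 table of RPKM values for 11164 genes in 6 libraries, each reaching at least 1 RPKM in 1 or more libraries. The tools named in the submitters' processing notes are bcl2fastq 2.18.0.12, HTSeq and TopHat2, and the build is mm10; their order and settings, the annotation, library totals and use of strand are not given. The lists and genes were chosen with earlier results of these data known.

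From these values log2(RPKM + 1) was computed. Group means of the 3 groups were fitted by limma 3.58.1 (R 4.3.3; empirical Bayes with variance trend) for the 10829 genes averaging 1 RPKM or more, and the fit was tested on simulated data. P-values are two-sided and Benjamini-Hochberg adjusted over all tested genes within a comparison; the threshold was 0.05. Errors are standard errors or 95% confidence intervals of that model.

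Depth per library (25.8 to 29.2 megareads) was estimated from the steps of low RPKM values: 56.8% to 62.6% of 91 to 103 values came out whole within 0.15 read. At any single depth chance gives 30%. The depth with the highest share was kept from a scan of many, so the best share by chance is above 30% and was not worked out. Reads were not recovered, so no count test was run, and precision rests on the spread between 2 libraries.

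Values in every library are given for the 12 called genes with the largest difference in each knockdown, the 6 in the direct comparison, the most abundant gene of each role and partner chains. Of the other lists up to 4 called genes are named. A few genes that these rules pick are not reported here. Exons come from GENCODE M21 on GRCm38, the assembly of mm10, and promoter sequence from RefSeq GRCm38.p6. Alternatives were another pseudocount, filter, scaling or variance model, a replicate block, the 2 groups alone, and omission of each library.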

Additional observations from a re-analysis of the deposited data

How the results depend on the processing

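No direction turned round among the members called against control, but most alternatives could not have turned one. Knockdown and control libraries did not overlap for any of these genes. Another pseudocount, another filter or an omitted library therefore could not change the sign. Scaling moved the median difference from control by -0.06 to -0.04, smaller in size than any called difference. The differences between libraries 3 and 1 were correlated across genes. They gave r of -0.372 between the Glis3 knockdown and control, -0.428 between the CD133 knockdown and control and 0.032 between the knockdowns. Such correlations cannot show whether libraries of the same number share mice or cultures. With a replicate block the calls were 608 genes and 8 members (1 higher, 7 lower) in the Glis3 knockdown, 335 genes and 3 members (1 higher, 2 lower) in the CD133 knockdown, and 79 genes and 4 members (0 higher, 4 lower) in the direct comparison. With libraries 1 and 3 of the control crossed in the block, an alternative chosen after seeing the data, 16, 16 and 14 members were called. The genes called over the whole table in that setting were 1497, 1456 and 634. Fitted to the 2 groups compared alone, the direct comparison called 58 genes and 2 members (0 higher, 2 lower), and the CD133 knockdown 505 lower genes and 9 lower members. A minimum mean of 5 RPKM gave 913 genes in the Glis3 knockdown. In the CD133 knockdown it gave 340 lower genes and 3 lower members, since Mmp13 and Adamts9 were then not tested. With no filter beyond that of the deposited values, 924 genes and 4 members, Nid2 among them, were higher in the Glis3 knockdown. After median centring 576 genes and 1 member were. Without a variance trend 142 genes and 0 members were higher in the direct comparison.

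Leaving out 1 library at a time, the Glis3 knockdown gave 21 to 1343 genes and 2 to 16 members (0 to 3 higher, 2 to 13 lower). The CD133 knockdown gave 0 to 1673 genes and 0 to 19 members (0 to 11 higher, 0 to 8 lower), where 0 genes passed in limma without control library 1, with 2449 at an unadjusted p under 0.05, and 0 without control library 3, with 2680. The direct comparison gave 46 to 756 genes and 3 to 14 members (0 higher, 3 to 14 lower). A group left with 1 library is assumed there to vary like the others. The smallest member difference past the threshold was 0.23, for Timp2 in the CD133 knockdown.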

Other observations

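Among 15 secreted matricellular and other glycoprotein genes, none of them among the 57, 0 rose and 3 fell in the Glis3 knockdown (median log2 difference -0.10). In the CD133 knockdown 1 rose and 1 fell (median -0.11). Over all tested genes 8.39% were higher and 4.53% lower in the Glis3 knockdown, and 8.16% and 3.64% in the CD133 knockdown. Every CD133 knockdown call and most Glis3 knockdown calls over all tested genes were lost without either control library. This limit holds for all genes named in this section. Fbln2, a fibulin that binds fibronectin and basement membrane, had 64.0 and 44.7 RPKM in the Glis3 knockdown, 83.5 and 94.1 RPKM in the CD133 knockdown and 112 and 109 RPKM in control, and its difference in the Glis3 knockdown was -1.03 (limma, adjusted p = 0.0124). Ltbp2, a fibrillin-binding protein, fell there by 0.98 (adjusted p = 0.0464) and Tnc, the matrix protein tenascin C, by 0.62 (adjusted p = 0.049), both at under 3 RPKM in every library. In the CD133 knockdown Ecm1, a secreted matrix glycoprotein, had 86.5 and 61.8 RPKM, against 27.9 and 35.7 RPKM in control (difference 1.19, adjusted p = 0.0204). Spp1, osteopontin, had 3127 and 4202 RPKM in the CD133 knockdown, against 6490.03 and 6733 RPKM in control (-0.87, adjusted p = 0.029).

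Among 25 other proteases and protease inhibitors, 2 rose and 4 fell in the Glis3 knockdown (median -0.08), where 8.39% of all tested genes were higher and 4.53% lower. In the CD133 knockdown 2 rose and 1 fell (median 0.09), where 8.16% were higher and 3.64% lower. Htra1, a secreted serine protease that cuts fibronectin, had 20.6 and 23.1 RPKM in the Glis3 knockdown, 15.02 and 13.8 RPKM in the CD133 knockdown and 13.9 and 13.7 RPKM in control. Its difference was 0.62 in the Glis3 knockdown (adjusted p = 0.00734) and 0.57 between the knockdowns (adjusted p = 0.0173). Hpse, the heparanase gene, rose in the Glis3 knockdown (0.53, adjusted p = 0.0223), and Ctsh, a lysosomal cathepsin, fell (-0.51, adjusted p = 0.0176). In the CD133 knockdown the cathepsin gene Ctsb (0.47, adjusted p = 0.0241) and the membrane protease gene Tmprss2 (0.49, adjusted p = 0.0276) rose, and Prss8, the prostasin gene, fell (-0.37, adjusted p = 0.0285).

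The sum of the 2 acinar markers in the table, nearly all of it Reg1, was 109 and 49.3 RPKM in the Glis3 knockdown, 389 and 383 RPKM in the CD133 knockdown and 197 and 305 RPKM in control. Reg1 fell in the Glis3 knockdown (-1.74, limma adjusted p = 0.0281) and was also called lower than in the CD133 knockdown (-2.40). Its 0.65 in the CD133 knockdown against control did not pass (limma adjusted p = 0.268). The sum of 4 endocrine markers was 12.2 and 6.04 RPKM in the Glis3 knockdown, 2.61 and 0.86 RPKM in the CD133 knockdown and 3.51 and 9.70 RPKM in control, so the Glis3 knockdown and control overlapped. The endocrine markers tested, Gcg and Sst, did not pass in any limma comparison (lowest adjusted p = 0.0557, Sst between the knockdowns). Their part in the values of the matrix and protease genes was not tested.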
